A study of Mus musculus with 4 samples.

Results

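Targets of the hypoxia-inducible factor HIF with functions outside glycolysis, 10 genes in all, were examined in primary neural stem/progenitor cells (NSCs) of the mouse. They are Hif1a, Vegfa, Bnip3, Egln1, Egln3, Ddit4, Adm, Ndrg1, Ankrd37 and P4ha1. Hif1a encodes a subunit of HIF itself and is counted with the targets throughout. The genes were read by gene name from the deposited expression table, where each of the 10 has 1 of the 18169 rows. The RNA came from 4 samples on a C57BL/6 background, 2 of wild-type (+/+) mice and 2 of Chd5-/- mice, which lack the chromatin remodeler Chd5. Every culture derived from the brain of a single newborn mouse, from the tissue around the ventricles, and was kept in medium with epidermal growth factor and fibroblast growth factor 2. The growth protocol gives postnatal day 1 for all cultures. The age entries of the labels instead give postnatal days 1 and 2 for +/+ replicates 1 and 2 and days 3 and 4 for Chd5-/- replicates 1 and 2. Where these entries hold, age and genotype cannot be told apart. Age and replicate within a genotype then cannot be told apart either. The oxygen level of the cultures is not given in the sources used here.

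HIF is a pair of proteins, an oxygen-controlled alpha subunit such as that encoded by Hif1a and a constant beta subunit encoded by Arnt. When oxygen is present, prolyl hydroxylases of the Egln family mark the alpha subunit, the Vhl ubiquitin ligase binds it, and it is degraded. When oxygen is scarce the alpha subunit persists, enters the nucleus and binds hypoxia response elements, whose core is ACGTG or GCGTG. Control of HIF is thus known mainly at the level of the protein, and Hif1a mRNA is not a measure of HIF activity. Among the targets, Egln1 and Egln3 close a feedback loop, and neural progenitors are known to live at low oxygen in the brain.

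The RefSeq promoter table (GRCm38.p6) held 10 windows for 9 of the 10 genes, all but Ndrg1, and the 250 bases before each start site were searched on both strands. ACGTG was found in 8 of the 9 genes and in 8 of the 10 windows (80%), against 16.6% of all 32851 windows and 20.4% of the 18364 windows with a GC content of at least 50.8%, the lowest among these genes. The second motif, GCGTG, was in 7 of the 10 windows (70%), against 28.2% of all windows. For GCGTG no share among windows of like GC content was computed. CACGTG, which holds ACGTG on both strands and is counted in it, was in 2 of the 10 windows, those of Hif1a and Bnip3, and in 6.02% of all windows. Adm held GCGTG alone, and of the 2 windows of Vegfa the one at chr17:46032378-46032627 held neither motif while that at chr17:46025164-46025413 held both. The former lies at the 5′ end of the annotated gene and the latter, by which Vegfa is counted, inside it. The windows of Hif1a and Ankrd37 also lie inside the annotated gene. A match is a match of letters and no evidence of binding. The windows of 4 genes are printed 5′ to 3′ on the strand of the gene, as examples from the 7 genes that were at least 2-fold higher in Chd5-/- replicate 1 than in Chd5-/- replicate 2. Capitals mark ACGTG or its reverse complement. They are those of Egln3 (chr12:54203875-54204124, minus strand), P4ha1 (chr10:59323046-59323295, plus strand), Ankrd37 (chr8:45999851-46000100, minus strand) and Bnip3 (chr7:138909507-138909756, minus strand).
Egln3: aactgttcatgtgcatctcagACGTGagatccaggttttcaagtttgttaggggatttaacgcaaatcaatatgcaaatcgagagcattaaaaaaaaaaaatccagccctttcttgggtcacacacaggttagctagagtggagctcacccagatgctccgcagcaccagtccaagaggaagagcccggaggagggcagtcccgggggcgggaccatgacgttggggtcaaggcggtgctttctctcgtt
P4ha1: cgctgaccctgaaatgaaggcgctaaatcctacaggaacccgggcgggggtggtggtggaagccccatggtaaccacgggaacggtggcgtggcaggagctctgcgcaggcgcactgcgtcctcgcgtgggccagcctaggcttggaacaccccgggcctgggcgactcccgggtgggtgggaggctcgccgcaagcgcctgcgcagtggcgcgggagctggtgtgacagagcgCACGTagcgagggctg
Ankrd37: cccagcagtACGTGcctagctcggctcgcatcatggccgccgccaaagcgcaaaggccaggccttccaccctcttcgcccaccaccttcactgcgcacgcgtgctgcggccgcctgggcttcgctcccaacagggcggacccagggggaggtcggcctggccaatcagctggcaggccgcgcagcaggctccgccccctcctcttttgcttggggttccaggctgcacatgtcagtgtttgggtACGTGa
Bnip3: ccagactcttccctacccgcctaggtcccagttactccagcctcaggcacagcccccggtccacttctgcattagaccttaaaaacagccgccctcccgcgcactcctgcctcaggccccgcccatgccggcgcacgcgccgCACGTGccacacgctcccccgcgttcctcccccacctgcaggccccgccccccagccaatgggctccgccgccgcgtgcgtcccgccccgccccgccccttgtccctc

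Values are TPM, the share of a transcript among all transcripts of a sample, and are scaled for transcript length and so can be compared between genes. Read counts cannot be recovered from TPM, and sequencing depth is therefore unknown here. Chd5, the targeted gene (chromosome 4 of GRCm38, 152338651 to 152390194, plus strand), measured 0.39 and 0.37 TPM in +/+ NSCs, against 0.06 and 0.04 TPM in Chd5-/- NSCs. The samples of a genotype differed from each other to unequal degrees, with a rank correlation across the 12576 rows tested of 0.974 between the +/+ samples and of 0.904 between the Chd5-/- samples, where values between 0.904 and 0.925 were found across genotypes. Of 10 NSC markers all had a row, and their summed level was 8035 and 6599 TPM in the +/+ samples and 3570 and 5911 TPM in Chd5-/- replicates 1 and 2. Most of the sum was Fabp7, at 5891.59 and 4315.73 TPM in +/+ NSCs, against 1938.77 and 3822.43 TPM in Chd5-/- NSCs. Nes measured 74.73 and 83.22 TPM in +/+ NSCs, against 94.66 and 60.88 TPM in Chd5-/- NSCs, and Prom1 measured 0.99 and 4.15 TPM in +/+ NSCs, against 45.27 and 3.20 TPM in Chd5-/- NSCs. The 7 mesenchymal and pericyte markers summed to 0.48 and 1.38 TPM in the +/+ samples, 13.0 TPM in Chd5-/- replicate 1 and 0.53 TPM in Chd5-/- replicate 2. The 13.0 TPM were mainly Col3a1 at 7.41 and Dcn at 4.17 TPM, both named after their values were seen, with Col1a1 at 0. The 4 endothelial markers with a row, of 7, summed to between 0.43 and 1.70 TPM over the samples, and the 2 microglial markers with a row, of 7, to between 0.21 and 0.62 TPM.

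In +/+ NSCs the 10 genes spanned the range from weak to strong expression, between the 11.8th and the 96.1st percentile of the rows tested. By mean TPM (± SD, n = 2) they were, in falling order, Hif1a at 269 ± 109, Bnip3 at 223 ± 95.4, P4ha1 at 126 ± 0.156, Egln1 at 73.3 ± 7.33, Vegfa at 55.9 ± 1.90, Ddit4 at 38.3 ± 10.5, Adm at 29.15 ± 9.86, Egln3 at 21.2 ± 2.58, Ndrg1 at 2.38 ± 1.37 and Ankrd37 at 1.70 ± 0.382. The ranges of the 2 samples overlapped between the neighbours Hif1a and Bnip3, Ddit4 and Adm, Adm and Egln3, and Ndrg1 and Ankrd37. All other neighbours were apart in both samples. In Chd5-/- NSCs the means were larger for 9 of the genes and the spread was wider for most, with Bnip3 at 351 ± 233, P4ha1 at 292 ± 169, Hif1a at 263 ± 35.3, Vegfa at 135 ± 106, Ddit4 at 103 ± 35.8, Egln1 at 96.3 ± 49.4, Adm at 53.3 ± 7.27, Ndrg1 at 43.0 ± 51.3, Egln3 at 32.3 ± 29.1 and Ankrd37 at 5.19 ± 3.61. There the ranges of neighbours were apart for Hif1a and Vegfa, Egln1 and Adm, and Egln3 and Ankrd37 alone. Wherever a pair of values is given for a genotype, replicate 1 comes first.

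**Figure D1:**
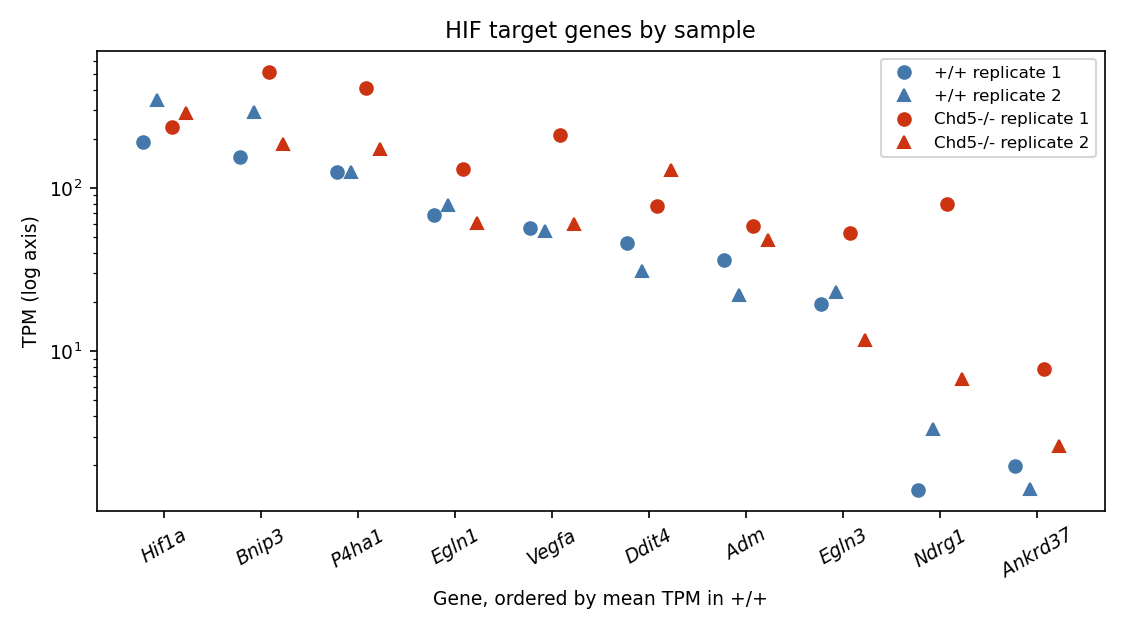
TPM of the 10 HIF target genes in each sample on a log axis, ordered by mean TPM in +/+ NSCs, with blue symbols for +/+ and red for Chd5-/-, circles for replicate 1 and triangles for replicate 2. The red circle of Chd5-/- replicate 1 is the highest of the 4 symbols in 8 genes, and Ddit4 and Hif1a are the exceptions.

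The mRNA of the transcription factor subunit differed little between the genotypes. Hif1a (chromosome 12, 73901375 to 73947530, plus strand) measured 191.74 and 345.42 TPM in +/+ NSCs, against 237.56 and 287.53 TPM in Chd5-/- NSCs. Both Chd5-/- samples lay inside the range of the +/+ samples, which themselves differed by 0.85 on the log2 scale of TPM plus 1, with replicate 2 higher. The log2 difference between genotypes was 0.02 (standard error 0.34, adjusted p = 0.975 with limma), and its sign turned under 3 other scalings between samples, median-of-ratios (-0.39), quantile normalization (-0.10) and rescaling without the 20 most abundant rows (-0.21).

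Of the oxygen sensors that hydroxylate the alpha subunit, Egln1 (chromosome 8, 124908587 to 124949324, minus strand) was at 68.10 and 78.46 TPM in the +/+ samples, 131.23 TPM in Chd5-/- replicate 1 and 61.41 TPM in Chd5-/- replicate 2. Egln3 (chromosome 12, 54178981 to 54203860, minus strand), the family member most strongly induced by hypoxia in many cells, was at 19.39 and 23.04 TPM in the +/+ samples, 52.92 TPM in Chd5-/- replicate 1 and 11.77 TPM in Chd5-/- replicate 2. For both genes the highest and the lowest of the 4 values were those of the Chd5-/- samples, and the genotypes overlapped. The ratio between the Chd5-/- samples was 2.14 for Egln1 and 4.50 for Egln3. The log2 difference between genotypes was 0.29 (standard error 0.40) for Egln1 and 0.25 (standard error 0.69) for Egln3, and it was below 0 for both genes under median-of-ratios scaling (-0.12, -0.15) and once the trends of each sample with GC content and length had been taken out (-0.54, -0.29), and for Egln3 after quantile normalization (-0.11).

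Among the secreted factors, Vegfa (chromosome 17, 46016993 to 46032369, minus strand), the main growth factor of blood vessels, measured 57.23 and 54.54 TPM in +/+ NSCs, against 209.87 and 60.47 TPM in Chd5-/- NSCs. Chd5-/- replicate 1 was 3.47 times as high as Chd5-/- replicate 2, which lay just above the +/+ samples. The log2 difference was 1.00 (standard error 0.59, adjusted p = 0.346 with limma), and 0.52 with GC and length trends removed. It was 0.11 without Chd5-/- replicate 1 and 1.89 without Chd5-/- replicate 2. Adm (chromosome 7, 110627661 to 110629820, plus strand) encodes adrenomedullin, a peptide that widens vessels. It measured 36.12 and 22.18 TPM in +/+ NSCs, against 58.43 and 48.15 TPM in Chd5-/- NSCs. Here both Chd5-/- samples were above both +/+ samples and differed from each other less than the +/+ samples did, with a log2 difference of 0.88 (standard error 0.31, unadjusted p = 0.0346 and adjusted p = 0.18 with limma). With GC and length trends removed the difference was 0.36, and without +/+ replicate 2 it was 0.54.

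A pair of genes acts on mitochondria and on growth signaling. Bnip3 (chromosome 7, 138890836 to 138909519, minus strand), a mitochondrial outer membrane protein that marks mitochondria for autophagy, measured 155.80 and 290.76 TPM in +/+ NSCs, against 515.99 and 186.36 TPM in Chd5-/- NSCs. Chd5-/- replicate 1 was the highest and Chd5-/- replicate 2 lay between the +/+ samples, and the log2 difference was 0.54 (standard error 0.57). Ddit4 (chromosome 10, 59949669 to 59951834, minus strand), whose product Redd1 inhibits the growth kinase complex mTORC1 and which is also induced by other stresses, measured 45.76 and 30.88 TPM in +/+ NSCs, against 77.79 and 128.48 TPM in Chd5-/- NSCs. It was the only one of the 10 genes that was highest in Chd5-/- replicate 2, and the genotypes did not overlap. Its log2 difference of 1.39 (standard error 0.35, unadjusted p = 0.00951 and adjusted p = 0.128 with limma) had the smallest p-value of the 10 genes. With GC and length trends removed it was 0.44, and Ddit4 had the highest GC content of the 10 genes, 57.9% against a median of 49.2% over the rows tested.

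The widest range was that of Ndrg1 (chromosome 15, 66929318 to 66969640, minus strand), a gene of differentiation and stress responses that is a common marker of low oxygen in tumors. It was at 1.41 and 3.35 TPM in the +/+ samples, 79.23 TPM in Chd5-/- replicate 1 and 6.75 TPM in Chd5-/- replicate 2. Both Chd5-/- samples were thus above both +/+ samples, but replicate 1 was 11.7 times as high as replicate 2. The log2 difference of 2.95 (standard error 1.11) had an unadjusted p of 0.0431 and an adjusted p of 0.195 with limma, and it lay at the 99.7th percentile of all rows. Without Chd5-/- replicate 1 the log2 difference was 1.26, and without Chd5-/- replicate 2 it was 4.63.

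P4ha1 (chromosome 10, 59323296 to 59373304, plus strand), the catalytic subunit of the enzyme that hydroxylates proline in collagen, measured 125.67 and 125.89 TPM in +/+ NSCs, against 412.06 and 172.40 TPM in Chd5-/- NSCs. Ankrd37 (chromosome 8, 45996902 to 46005707, minus strand), a small ankyrin repeat protein, measured 1.97 and 1.43 TPM in +/+ NSCs, against 7.74 and 2.63 TPM in Chd5-/- NSCs. For both genes the genotypes did not overlap, and Chd5-/- replicate 1 was 2.39 times (P4ha1) and 2.94 times (Ankrd37) as high as Chd5-/- replicate 2. The log2 differences were 1.08 (standard error 0.44, adjusted p = 0.215) and 1.07 (standard error 0.51, adjusted p = 0.265) with limma. They were 0.45 (P4ha1) and 0.43 (Ankrd37) without Chd5-/- replicate 1, and 1.70 for each without Chd5-/- replicate 2. P4ha1 kept most of its difference with GC and length trends removed (0.98), while Ankrd37 was then at 0.46.

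For the comparison of genotypes, limma was fitted to log2(TPM + 1) of the 12576 rows that reached a mean of 1 TPM, all 10 genes among them. None of the 10 genes had an adjusted p-value under 0.05, where 0.0318% of all rows were higher and 0.0239% lower in Chd5-/- NSCs. At an unadjusted p-value under 0.05, 3 of the 10 genes were higher, Ddit4, Adm and Ndrg1, and 0 were lower, against 21.9% of all rows higher and 2.27% lower. Without +/+ replicate 1 or 2 the median log2 difference of the 10 genes was 1.06 or 0.95, against 0.41 or 0.26 for all rows. Without Chd5-/- replicate 1 or 2 it was 0.30 or 1.28, against 0.35 or 0.33 for all rows. The lower Chd5-/- value exceeded the higher +/+ value in 6 of the 10 genes, against 46.3% of all rows, and the reverse held in 0, against 13% of all rows. With all 4 samples these shares were near those of the table as a whole. The median log2 difference was 0.94 for the 10 genes and 0.34 for all rows. The direction of the table as a whole depended on the scaling, since 2748 rows were higher and 285 lower at an unadjusted p-value under 0.05 as deposited, whereas under median-of-ratios scaling 1391 were higher and 1507 lower, and the median of all rows moved to -0.03 and that of the 10 genes to 0.53. The log2 difference was also larger for transcripts of higher GC content across 12102 rows, which are not independent replicates (Spearman's rho = 0.60). With GC and length trends removed the median was 0.45 for the 10 genes and -0.03 for all rows, and 0 of the 10 genes had an unadjusted p-value under 0.05.

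**Figure D2:**
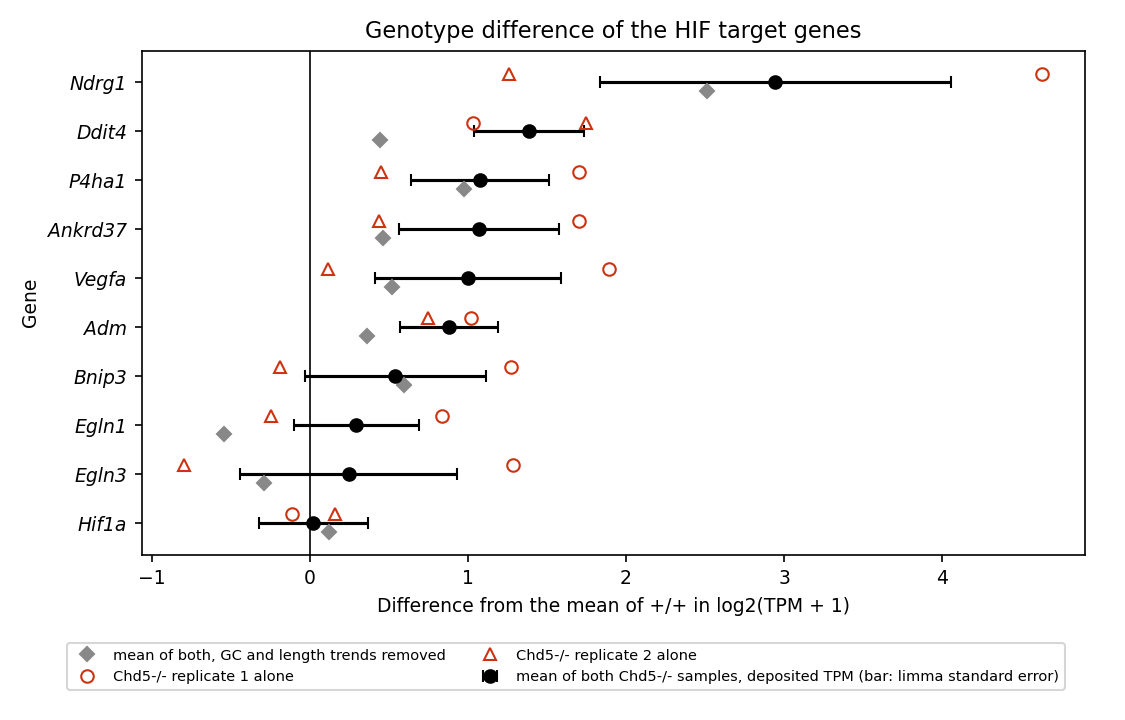
Difference of each gene from the mean of the +/+ samples in log2(TPM + 1). Black points with limma standard errors are the mean of both Chd5-/- samples, gray diamonds the same with GC and length trends removed, and open red symbols each Chd5-/- sample alone. The open symbols of replicates 1 and 2 lie far apart for Ndrg1 (4.63 and 1.26) and on opposite sides of 0 for Bnip3, Egln1, Egln3 and Hif1a.

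Most of the 10 genes differed between the Chd5-/- samples. In all, 7 were at least 2-fold higher on the scale of TPM plus 1 in Chd5-/- replicate 1 than in replicate 2, against 8.87% of all rows, and 0 were at least 2-fold lower, against 8% of all rows. They were Ndrg1 (a difference of 3.37 in log2), Egln3 (2.08), Vegfa (1.78), Bnip3 (1.46), Ankrd37 (1.27), P4ha1 (1.25) and Egln1 (1.08). The other three, Adm (0.27), Hif1a (-0.27) and Ddit4 (-0.72), were not. The difference for Egln1 was the one nearest above the threshold of 1. No test is given, because each value compares 1 sample with 1 sample and the comparison was chosen after the values were seen. The age entries of the labels also differ between these samples, at postnatal days 3 and 4. The median of the 10 genes was 1.26 and that of all rows -0.0021. Chd5-/- replicate 1 was the highest of the 4 samples for 8 of the 10 genes, against 36.7% of all rows, and Chd5-/- replicate 2 for 1, Ddit4, against 39.9%. Chd5-/- replicate 1 was at least 2-fold above the highest of the other samples for 5 genes, against 4.77% of all rows, and Chd5-/- replicate 2 for 0, against 3.97%. Chd5-/- replicate 2 was below the lower +/+ sample for 2 of the 10 genes, Egln1 and Egln3, against 25.9% of all rows.

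**Figure D3:**
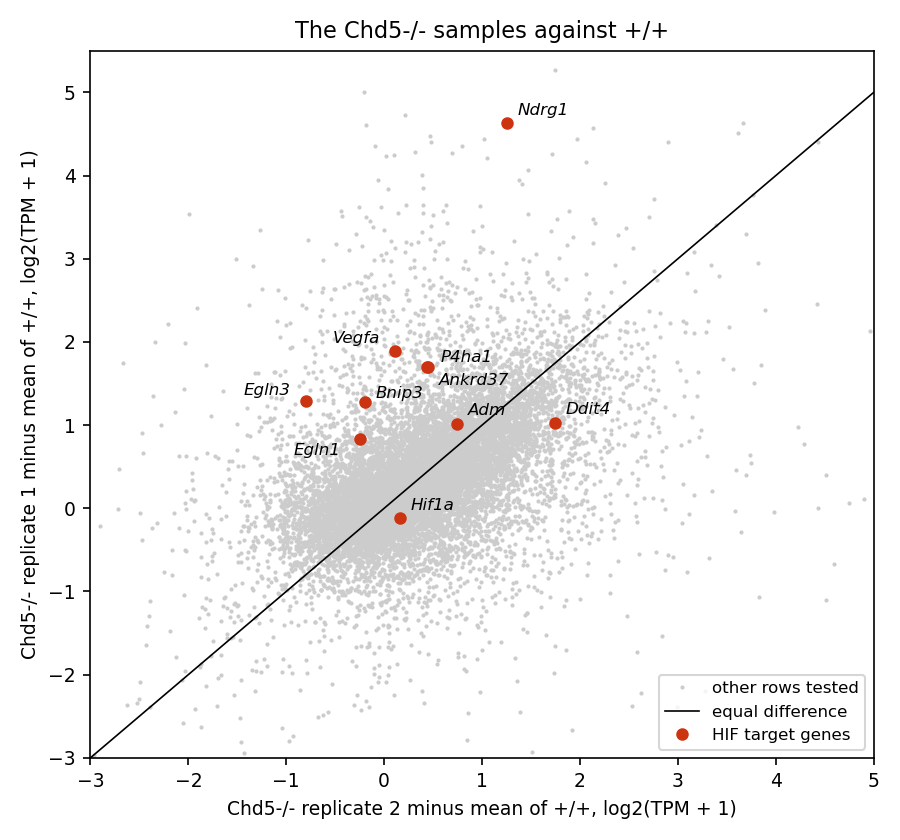
Difference of Chd5-/- replicate 1 from the mean of +/+ against that of Chd5-/- replicate 2, in log2(TPM + 1), for the rows tested (gray, 45 rows lie outside the range shown) and the 10 genes (red), with a line of equal difference. Above the line lie 8 of the genes, and Hif1a and Ddit4 lie below it.

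Across all rows, the difference between the Chd5-/- samples had a rank correlation of -0.036 with the GC content of the transcript. With GC and length trends removed the same count was 7 of the 10 genes, against 8.15% of all rows, and it was also 7 after median-of-ratios scaling, quantile normalization and rescaling, and 6 with a pseudocount of 5. Between the +/+ samples 0 of the 10 genes differed 2-fold or more in either direction on the same scale of TPM plus 1 (Ndrg1, at 1.41 and 3.35 TPM, was at -0.85), where 2.08% of all rows were higher and 1.97% lower in replicate 1. Chd5-/- replicate 1 was also the sample with the highest sum of mesenchymal markers and the lowest sum of NSC markers, of which 5 of 10 were lowest in it while Nes and Prom1 were highest in it. The 6 astrocyte markers summed to 2129 and 2244 TPM in +/+ NSCs, against 886 and 1753 TPM in Chd5-/- NSCs, and 3 of the 6, Gfap, S100b and Slc1a3, were lowest in Chd5-/- replicate 1 while Aqp4, Aldh1l1 and Gja1 were lowest in +/+ replicate 1. The part of these markers in the result was not tested. In RNA from whole cultures, more cells that express a gene and more RNA per cell cannot be told apart.

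The comparison of genotypes depended on which Chd5-/- sample was used. Without Chd5-/- replicate 2, 5 of the 10 genes had an adjusted p-value under 0.05 with limma, all higher, against 7.27% of all rows higher and 1.37% lower. At an unadjusted p-value under 0.05 it was 9 of the 10, all but Hif1a, against 25.9% of all rows higher and 5.6% lower. The 5 genes were Vegfa (log2 difference 1.89, adjusted p = 0.00927), Ndrg1 (4.63, adjusted p = 0.00927), P4ha1 (1.70, adjusted p = 0.0109), Egln3 (1.28, adjusted p = 0.0429) and Ankrd37 (1.70, adjusted p = 0.0458). Without Chd5-/- replicate 1, Ddit4 alone passed (1.75, adjusted p = 0.0348), against 8.09% of all rows higher and 1.82% lower. At an unadjusted p-value under 0.05 Ddit4 and Ndrg1 were then higher, against 27.8% of all rows, and Egln3 lower, against 7.5% of all rows. The median of the 10 genes was 0.30, under that of all rows (0.35). In these fits the lone Chd5-/- sample is assumed to vary like the +/+ samples, which differed less from each other than the Chd5-/- samples did. Across the alternatives tried, limma's adjusted p-values spanned 0.00927 to 0.837 for Vegfa, 0.00927 to 0.759 for Ndrg1, 0.0109 to 0.790 for P4ha1, 0.0429 to 0.991 for Egln3, 0.0458 to 0.825 for Ankrd37 and 0.0348 to 0.759 for Ddit4.

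Most other HIF targets outside glycolysis, but not all, were also higher in Chd5-/- replicate 1 than in replicate 2. In a list of 30 further targets outside glycolysis, 25 were tested. Of these, 15 were at least 2-fold higher in Chd5-/- replicate 1 than in replicate 2 and 0 at least 2-fold lower. The shares of all rows were 8.87% and 8%, and the median difference of the 25 was 1.23. Chd5-/- replicate 2 was below the lower +/+ sample in 12 of the 25, against 25.9% of all rows. Chd5-/- replicate 1 was at least 2-fold above the highest of the other samples in 8, against 4.77%. Tfrc, among the 15, measured 135.63 and 186.23 TPM in +/+ NSCs, against 140.57 and 30.94 TPM in Chd5-/- NSCs. Some are named after their values were seen, the first being Ero1l, which oxidizes protein thiols in the endoplasmic reticulum, with 188.63 and 322.06 TPM in the +/+ samples, 1864.17 TPM in Chd5-/- replicate 1 and 96.93 TPM in Chd5-/- replicate 2. Gbe1, the glycogen branching enzyme, measured 60.38 and 106.58 TPM in +/+ NSCs, against 266.70 and 22.07 TPM in Chd5-/- NSCs. Fam162a, a mitochondrial HIF target, measured 336.08 and 411.75 TPM in +/+ NSCs, against 1712.22 and 326.70 TPM in Chd5-/- NSCs. The differences of Ero1l, Gbe1 and Fam162a between the Chd5-/- samples (4.25, 3.54 and 2.39 in log2) were the largest of the list. Lower in replicate 1 were Wsb1 (-0.86), Mxi1 (-0.49), Kdm3a (-0.44), Bnip3l (-0.23) and Angptl4 (-0.14), also named after their values were seen. Between genotypes 4 of the 25 were higher and 0 lower at an unadjusted p-value under 0.05, against 21.9% and 2.27% of all rows, and 0 passed the adjusted threshold. The largest log2 differences were those of Cxcr4, a chemokine receptor (2.07, adjusted p = 0.120 with limma), and, downward, Tfrc, the transferrin receptor (-1.25, adjusted p = 0.334 with limma).

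For the HIF targets of glycolysis, 19 of 20 listed genes had a row and were tested. Chd5-/- replicate 1 was the highest sample for 18 of the 19, against 36.7% of all rows. In it 8 were at least 2-fold higher than in Chd5-/- replicate 2, against 8.87% of all rows, and Aldoc was lower (22.56 against 320.88 TPM). Between genotypes 9 of the 19 were higher and 0 lower at an unadjusted p-value under 0.05, against 21.9% and 2.27% of all rows, and 0 passed the adjusted threshold. Both Chd5-/- samples exceeded both +/+ samples in 11 of the 19, against 46.3% of all rows.

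Genes of the oxygen-sensing machinery were near the median of all rows in this difference. Of 13 tested genes other than Hif1a, Egln1 and Egln3, which encode HIF subunits, hydroxylases, parts of the Vhl ligase and coactivators with their competitor Cited2, the median difference between Chd5-/- replicates 1 and 2 was -0.014, and Cited2, a HIF target that competes for these coactivators, was the only one that was at least 2-fold higher in replicate 1. Arnt2, a HIF beta subunit, was the only one at least 2-fold lower, at 31.32 against 107.16 TPM. Cited2 also stands in the list of 30 further targets. Over the list of 17 genes, 16 were tested, and 2 were higher and 0 lower between genotypes at an unadjusted p-value under 0.05, against 21.9% and 2.27% of all rows. The genes were Egln2, the third hydroxylase (2.51 and 1.06 TPM in +/+, 5.09 and 7.29 TPM in Chd5-/-, log2 difference 1.40 and 0.43 with GC and length trends removed, adjusted p = 0.146 with limma), and Tceb2, which encodes elongin B of the Vhl ligase (adjusted p = 0.149), with a log2 difference of 0.71 that was -0.34 with GC and length trends removed. Tceb2, Arnt2 and Cited2 were chosen after their values were seen. The most negative log2 difference was that of Cul2, the scaffold of that ligase (-0.53, adjusted p = 0.307).

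**Figure D4:**
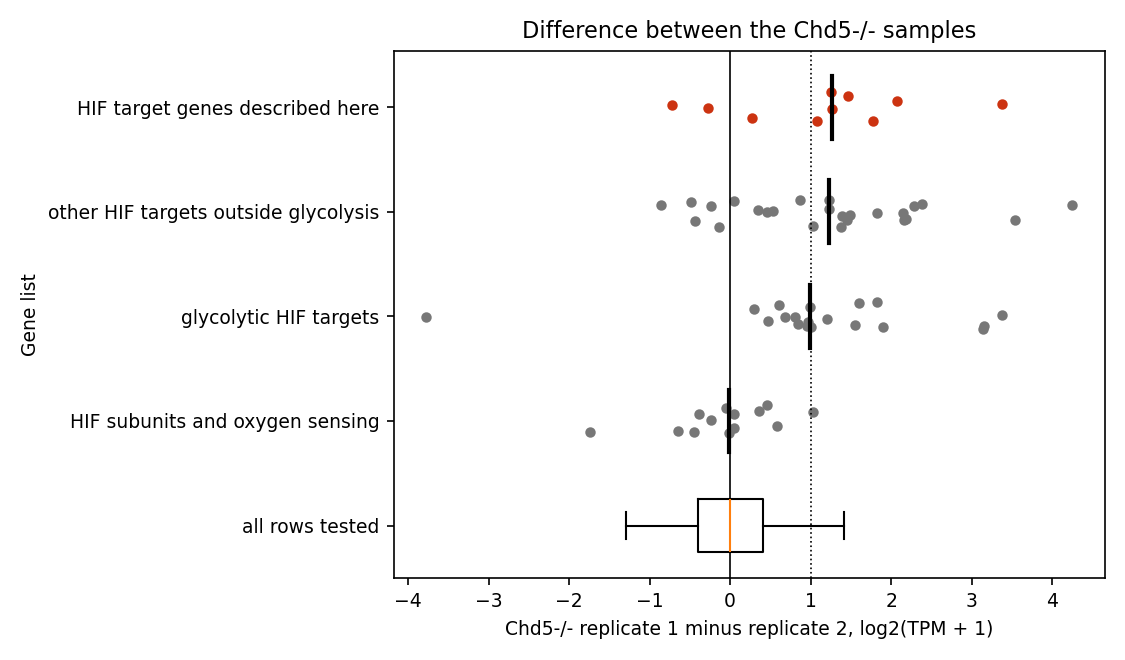
Difference of Chd5-/- replicate 1 from replicate 2 in log2(TPM + 1) for the tested genes of 4 lists, with bars at the medians, and for all rows tested (box from the 25th to the 75th percentile, whiskers at the 5th and 95th). The dotted line marks 2-fold. The medians are 1.26, 1.23 and 0.99 for the 3 lists of HIF targets, -0.014 for the oxygen-sensing genes without the 10 genes, and -0.0021 for all rows. Of the lists not shown, that of the ATF4 stress response had a median of 0.90 and that of mTORC1 control, with Ddit4, one of -0.20.

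Genes that act with single members of the 10 were also counted, and the counts at an unadjusted p-value under 0.05 stand against 21.9% of all rows higher and 2.27% lower. Of 8 genes of collagen hydroxylation, 7 were tested, and 4 were higher and 0 lower at an unadjusted p-value under 0.05. The 4 were Plod1, Plod3, P3h1 and P4hb, with log2 differences of 2.03, 1.06, 0.84 and 0.67. Without the GC and length trends these were 1.42, 0.14, -0.02 and -0.05. P4ha1, P4ha2 and Plod2 were at least 2-fold higher in Chd5-/- replicate 1 than in replicate 2. Plod1, a lysyl hydroxylase, had the largest log2 difference (2.03, adjusted p = 0.120 with limma), at 41.81 and 32.83 TPM in the Chd5-/- samples against 10.34 and 6.64 TPM in the +/+ samples. Of 12 genes of mitophagy, 3 were higher and 0 lower, the largest difference being that of Map1lc3a, a coat protein of autophagosomes (1.89, adjusted p = 0.120, and 0.89 without the GC and length trends), and the most negative that of Bcl2 (-0.29, adjusted p = 0.562, and -0.49 without the trends). Of 13 genes of mTORC1 control, 5 including Ddit4 were higher and 0 lower. Sesn2, another stress-induced inhibitor of mTORC1, had a difference of 1.5 (adjusted p = 0.128) that was 0.56 without the GC and length trends, and Rheb, the activator of mTORC1, one of -0.47 (adjusted p = 0.273). Of 8 targets and members of the ATF4 stress response, a further inducer of Ddit4, 2 were higher and 0 lower, and Atf4 itself measured 90.46 and 77.67 TPM in +/+ NSCs, against 92.91 and 62.17 TPM in Chd5-/- NSCs. The most negative was Asns, asparagine synthetase (-0.57, adjusted p = 0.357 with limma). Between the Chd5-/- samples, 3 of these 8 genes were at least 2-fold higher in replicate 1 and 0 at least 2-fold lower. The shares of all rows were 8.87% and 8%, and the median difference of the 8 was 0.90. Vldlr, among the 3, also stands in the list of 30 further HIF targets. Among the relatives of Ndrg1, Ndrg3 had a difference of 0.56 and Ndrg4 of -0.48 (adjusted p = 0.335 and 0.391 with limma). That of Ndrg4 was -1.20 without the GC and length trends. Ndrg2 measured 257.49 and 300.71 TPM in +/+ NSCs, against 79.09 and 704 TPM in Chd5-/- NSCs. Its difference between Chd5-/- replicates 1 and 2 was -3.14 in log2, opposite to that of Ndrg1. Ndrg1 was the only one of the 4 family members with an unadjusted p-value under 0.05. P4ha2, P4hb, Plod2, Plod3, P3h1, Ndrg2, Atf4 and Vldlr were named after their values were seen.

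Over all pathway lists, 100 distinct genes other than the 10 were tested, of which 31 were higher and 1 lower at an unadjusted p-value under 0.05 (21.9% and 2.27% of all rows) and 0 passed the adjusted threshold. Under median-of-ratios scaling 18 were higher and 9 lower, where 1391 and 1507 of the 12576 rows were. The number higher changed with each sample left out, as did that of all rows.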

How the data were processed

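RNA-seq values of 4 samples were used, 2 +/+ and 2 Chd5-/-. The authors deposited TPM values in 1 table, made with tools that the submitters' processing notes name as Bowtie2 2.2.3 and RSEM 1.2.20 on mm10. The gene annotation and the strand setting are not given in the sources used here. TPM has a fixed total per sample, so abundant rows shift all others, and depth cannot be read from it.

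Values were taken to log2(TPM + 1), and limma was fitted to rows whose mean reached 1 TPM, using limma 3.58.1 in R 4.3.3 (eBayes with a trend, two-sided, Benjamini-Hochberg over all 12576 rows). The design was 2 samples against 2, for which an exact permutation test could not go below p = 0.333. The labels do not say that the cultures of a genotype came from different litters, so p-values measure the spread between these samples. The limma fit was tested on simulated data with the same spread in both genotypes, whereas the Chd5-/- samples here differed more than the +/+ samples. Alternatives were other pseudocounts, minimums, scalings and eBayes settings, removal of GC and length trends, a replicate block, and leaving out each sample. GC content and length, of the longest transcript, and gene coordinates came from GENCODE M21 (GRCm38, the same assembly as mm10), for 96.2% of the rows tested. Trends were removed by loess (span 0.5) from each sample. Promoter sequences are from RefSeq (GRCm38.p6). All columns were mapped to samples by name. The genes and lists were chosen with earlier results of these data known. Named genes were the 10 genes, Chd5, the largest rise and fall of each list, the NSC markers and any marker at 0 that the check of the tissue needed, and the 3 rows nearest to the mean profile of the 10 genes. Genes outside this rule were picked with their values in view. Tables and figures were made with Python 3.11.15, pandas 2.3.3 and matplotlib 3.10.9.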

Additional observations from a re-analysis of the deposited data

How the results depend on the processing

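Depth is unknown and there are 2 samples per genotype, so single values rest on the spread of these samples alone. Of 169 values of the 10 genes under 17 alternatives, 15 turned direction. Other minimums, eBayes settings and a replicate block leave the log2 difference of a gene unchanged, so no value could turn under them. Removal of the trends with the block likewise repeats the values without it. No adjusted p-value of the 10 genes was under 0.05 in a limma fit to all 4 samples. The number of the 10 genes higher at an unadjusted p-value under 0.05 was 1 after median-of-ratios scaling, quantile normalization or rescaling without the 20 most abundant rows, and 0 once GC and length trends were taken out, be it without or with the replicate block. For the pathway lists the number higher was then 18, 18, 23, 12 and 10 in the same order, and the number lower was 9, 3, 5, 6 and 6. Over all rows, 1391, 1104, 1856, 640 and 440 were higher in that order, and 1507, 1024, 818, 727 and 455 were lower. The rows tested were 12576, 12576, 12556, 12102 and 12102. The number of pathway genes lower was 0 with a minimum of 10 TPM, where 246 of 8199 rows were lower. Hif1a was at -0.39, -0.10 and -0.21 after the 3 scalings, Egln1 at -0.12 after median-of-ratios scaling and -0.54 without the trends, and Egln3 at -0.15, -0.11 and -0.29 after median-of-ratios scaling, quantile normalization and removal of the trends. The cause was not tested. With one sample left out, the number of the 10 genes higher went from 0 (without +/+ replicate 2) to 9 (without Chd5-/- replicate 2), the number lower from 0 to 1, the number past the adjusted threshold from 0 to 5 and the median from 0.30 to 1.28. The pathway genes higher went from 13 to 60 and those lower from 0 to 15. Hif1a then ranged from -0.40 to 0.44, Bnip3 from -0.19 to 1.27, Egln1 from -0.25 to 0.84 and Egln3 from -0.79 to 1.28. Chd5 itself was at -1.68 with a pseudocount of 0.1 and -0.091 with 5, against -0.39.

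The replicate numbers are shared by both genotypes, but no label says what they mark, and the difference of replicate 1 from replicate 2 in one genotype was correlated with that in the other at -0.15 across rows. With the replicate number as a block, 4 of the 10 genes were higher at an unadjusted p-value under 0.05, as were 2111 of the 12576 rows, with 178 lower, and 0 of all rows passed the adjusted threshold, against 7. With the numbers crossed, chosen after the data were seen, 4 of the 10 genes and 34 pathway genes were higher and 2 pathway genes lower. Of the 12576 rows 2808 were then higher and 284 lower.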

Other observations

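Of 7 genes of the adrenomedullin system 5 were tested. In 4 of the 5 the unadjusted p-value was under 0.05, all higher in Chd5-/- NSCs, against 21.9% of all rows, and 0 passed the adjusted threshold. Besides Adm they were Calcrl, the receptor (27.16 and 38.72 TPM in +/+, 112.22 and 104.73 TPM in Chd5-/-, adjusted p = 0.120 with limma), and its partners Ramp1 (10.93 and 15.92 TPM, then 43.66 and 29.82 TPM) and Ramp2 (6.98 and 5.12 TPM, then 16.18 and 19.63 TPM). Here the Chd5-/- samples were close to each other, with differences between them of 0.10 for Calcrl, 0.54 for Ramp1 and -0.26 for Ramp2 in log2(TPM + 1). Between genotypes the log2 differences were 1.71, 1.38 and 1.43, and once GC and length trends were taken out 1.88, 0.74 and 0.52. Adm2, a related peptide, had the largest difference of the list (1.86, adjusted p = 0.303 with limma, and 0.86 without the trends) and was at 11.33 TPM in Chd5-/- replicate 1 and at 0.61 TPM or less in the other samples. Calcrl, Ramp1 and Ramp2 were named after their values were seen.

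Of 10 genes of the VEGF system 7 were tested, 2 were higher and 1 lower at an unadjusted p-value under 0.05, against 21.9% and 2.27% of all rows. Flt1, a receptor that binds Vegfa, was at 4.29 and 19.45 TPM in +/+ NSCs and at 1.02 and 0.69 TPM in Chd5-/- NSCs (log2 difference -2.49, adjusted p = 0.134 with limma). The ligands Vegfb (0.87, adjusted p = 0.129, but -0.14 once GC and length trends were taken out) and Pgf (1.5, adjusted p = 0.172, and then 0.60) were the 2 higher genes, named after their values were seen. Vegfc had the largest difference (1.56, adjusted p = 0.273) and was at 15.63 TPM in Chd5-/- replicate 1 against 3.15 TPM in replicate 2.

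Across the 4 samples, the 3 rows nearest to the mean profile of the 10 genes, by Euclidean distance of centred log2(TPM + 1), were Gys1, glycogen synthase (distance 0.0773), Fgf11 (0.0860) and Tuft1 (0.0949). Gys1 measured 22.23 and 23.19 TPM in +/+ NSCs, against 68.11 and 30.84 TPM in Chd5-/- NSCs. Fgf11 was at 33.51 and 38.67 TPM, then at 99.08 and 44.98 TPM, and Tuft1 at 1.22 and 1.35 TPM, then at 5.33 and 2.08 TPM. With 4 samples such a likeness is a description of these libraries. In the glycolytic list, the lactate exporter Slc16a3 measured 0.41 and 0.44 TPM in +/+ NSCs, against 25.29 and 1.96 TPM in Chd5-/- NSCs (log2 difference 2.63, adjusted p = 0.203 with limma).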
